A study of Mus musculus with 6 samples.

Results

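The cytosolic ribosomal protein genes encode the proteins of the 60S (large) and 40S (small) ribosomal subunits outside mitochondria. They were taken by gene symbol: Rpl or Rps with a number and at most 1 further letter, together with Rplp0, Rplp1, Rplp2 and Rpsa, without the Rps6k kinases and without symbols marked as pseudogenes. The probe set with the highest mean stood for each gene. The rule found 60 genes of 19505 named genes, 37 of the large and 23 of the small subunit, each with 1 probe set of 22206 tested. RNA of whole submandibular glands, a major salivary gland, came from 6 female NOD mice aged 10 weeks, an inbred strain prone to autoimmune infiltration of salivary glands and pancreas. In 3 mice Myd88 was wild type (Myd88+/+) and in the other 3 it was knocked out (Myd88-/-). The strain labels call both groups NOD.B6, name no cell type to which the deletion is limited, and do not say whether the mice were littermates. Each mouse gave 1 Clariom S array, which reports 1 summarised signal per transcript cluster as a log2 value. A difference of 1 log2 unit is a 2-fold change, and all differences are Myd88-/- minus Myd88+/+.

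Each ribosome carries 1 copy of almost every ribosomal protein, so cells make these proteins in matched amounts, and a secretory gland that exports much protein needs many ribosomes. In mammals the mRNAs of nearly all of them begin with an unbroken run of C and T (C and U in the RNA), the 5′ terminal oligopyrimidine or TOP tract, through which mTORC1 and Larp1 hold back or release their translation. The tract acts on translation more than on the amount of mRNA, and arrays measure only the amount. Myd88 is a cytosolic adaptor protein that couples Toll-like receptors and receptors of the interleukin-1 family to inflammatory signalling.

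The sequence around the transcription start is shown for the 5 genes with the smallest limma p that had an entry in the RefSeq promoter table (build GRCm38.p6) and for the 3 with an entry that varied least between mice. Each line runs 5′ to 3′ and holds 40 bases before the annotated start and 20 from the start on, with capitals for the longest run of C and T that comes within 5 bases of the start.
Rpl28, chr7:4792925-4792984, plus strand: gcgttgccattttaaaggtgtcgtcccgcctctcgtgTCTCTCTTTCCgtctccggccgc
Rps26, chr10:128626487-128626546, minus strand: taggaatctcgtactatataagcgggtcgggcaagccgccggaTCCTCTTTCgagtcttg
Rpl6, chr5:121204461-121204520, plus strand: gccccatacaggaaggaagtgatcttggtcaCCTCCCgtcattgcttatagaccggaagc
Rps16, chr7:28350649-28350708, plus strand: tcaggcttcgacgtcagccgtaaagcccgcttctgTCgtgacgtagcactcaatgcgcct
Rpl10l, chr12:66284382-66284441, minus strand: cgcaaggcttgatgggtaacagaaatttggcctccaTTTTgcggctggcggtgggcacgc
Rps23, chr13:90923082-90923141, plus strand: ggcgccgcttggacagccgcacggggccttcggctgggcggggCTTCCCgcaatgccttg
Rpl5, chr5:107900488-107900547, plus strand: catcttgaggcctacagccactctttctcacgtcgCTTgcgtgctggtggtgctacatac
Rpl15, chr14:18270967-18271026, minus strand: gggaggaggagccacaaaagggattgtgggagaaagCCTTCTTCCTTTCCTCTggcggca
The run was 11 bases long in Rpl28, 9 in Rps26, 6 in Rpl6, 17 in Rpl15 and 6 in Rps23, but only 2 in Rps16, 4 in Rpl10l and 3 in Rpl5. Of the 60 genes, 47 had a promoter entry, and a gene counted as holding a feature if any of its entries did. A run of at least 6 C or T that came within 5 bases of the annotated start was held by 24 of the 47 (51.1%). Such a run need not cover the start: that of Rpl6 ended before it, and those of Rps26 and Rps23 began only at base 4 of the transcript. A counted run is therefore not shown to be a TOP tract, and a gene without one is not shown to lack a tract. Of all 27025 genes with an entry 23% held such a run. The letters CCGGAAG, a core that Ets family factors bind, stood on either strand within 250 bases before to 50 after the start in 20 of 47 (42.6%) against 9.93% of all. The pyrimidine-rich CTCTTTCC stood on either strand in 8 of 47 (17%) against 3.57%, and in some promoters, such as that of Rpl28, it overlaps the run at the start. TATAA, the letters of a TATA box, stood on either strand in 14 of 47 (29.8%) against 28%. The genes that held the run had a median log2 difference of -0.082 and those that did not -0.117, with 17 of 24 and 16 of 23 genes below 0. The 8 with CTCTTTCC had a median of -0.306, 7 of them below 0, and the other 39 a median of -0.075, 26 of them below 0. The other 2 splits had smaller gaps. The median was -0.113 with CCGGAAG and -0.075 without it, with 14 of 20 and 19 of 27 genes below 0. It was -0.136 with TATAA and -0.087 without it, with 12 of 14 and 21 of 33 below 0. These letters were matched in the sequence alone, and the splits were not tested.

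Myd88 itself measured 7.81, 7.86 and 7.53 in the wild-type mice and 7.33, 6.80 and 7.47 in the knockout mice, a difference of -0.53 that did not pass (limma, adjusted p 0.4619). The groups did not overlap, and the knockout signal stayed above the median of the array's background control probe sets, 5.55. Which part of the transcript this probe set reads was not known, so it checks the labels only weakly. Over the whole array 0 of 22206 probe sets (0%) reached an adjusted p under 0.05 in limma, and 2232 had an unadjusted p under 0.05.

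No ribosomal protein gene changed past the test between Myd88-/- and Myd88+/+ glands. Of 60 genes 0 reached an adjusted p under 0.05 (limma), and the smallest adjusted p was 0.359, for Rpl29. At an unadjusted p under 0.05 there were 5 genes with a lower mean in the knockout mice (8.33%; 5.55% of all probe sets) and 0 with a higher one (4.50% of all). The mean was lower in 41 of 60 genes (68.3%; 47.5% of all), with a median difference of -0.088 and a range from -0.67 to 0.40. In 8 genes every knockout mouse lay below every wild-type mouse (13.3%; 7.25% of all), and in 1 gene every knockout mouse lay above (1.67%; 7.84% of all). The differences were small: 29 of 60 were under 0.1 log2 units in size and 16 were over 0.25. For 26 genes (43.3% against 18.2% of all) the 95% interval of the difference lay wholly within 0.5 log2 units of 0, a change of at most 1.41-fold in either direction. Among the brightest 10% of tested probe sets by mean signal, where most of these genes lay, the share was 27.8%. In RNA of a whole gland, fewer cells of a type and less RNA per cell cannot be told apart.

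**Figure D1:**
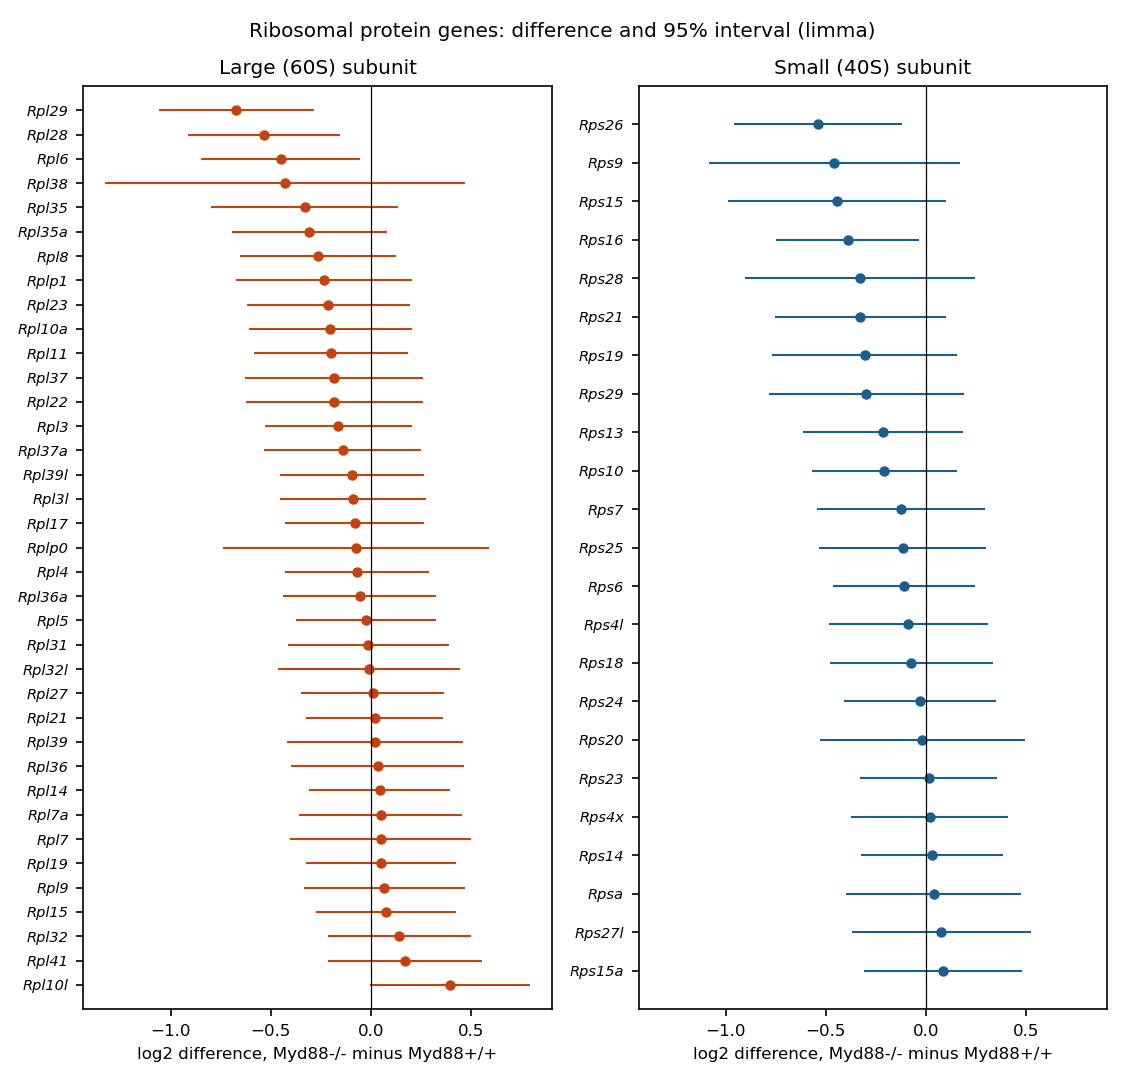
Log2 difference (Myd88-/- minus Myd88+/+, horizontal axis) of each of the 37 large-subunit and 23 small-subunit genes, with its 95% interval from limma (3 mice per group). The points lie between -0.67 for Rpl29 and 0.40 for Rpl10l, and 5 intervals leave out 0, all of them on the lower side.

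In the large subunit, Rpl29, a protein of the subunit's surface that mice can live without, stood furthest from 0. Its values were 14.10, 14.09 and 13.84 in the wild-type mice and 13.20, 13.30 and 13.51 in the knockout mice. Every knockout value was below every wild-type value, and the means, 14.01 ± 0.15 and 13.34 ± 0.16 (SD, n = 3 each), differed by -0.67 (SE 0.17; 1.59-fold; limma adjusted p 0.359). Rpl28, whose promoter holds the 11-base run shown above, measured 16.94, 16.89 and 16.63 against 16.18, 16.39 and 16.30. The groups again did not overlap, and the difference was -0.53 (SE 0.17; 1.45-fold; limma adjusted p 0.4021). Rpl6 measured 16.74, 16.65 and 16.55 against 16.25, 16.38 and 15.96, a difference of -0.45 (SE 0.18; limma adjusted p 0.4569), with knockout mouse 3 lowest. Rpl35a, one of the genes mutated in Diamond-Blackfan anaemia, measured 10.97, 10.88 and 10.91 against 10.78, 10.38 and 10.68, without overlap and with a difference of -0.31. Rpl35, which lies near the exit of the tunnel for the new protein chain, differed by -0.33, but knockout mouse 2 (13.50) lay above 2 of the 3 wild-type mice. Rpl8 differed by -0.26, and its highest knockout and lowest wild-type value both round to 14.51. With 3 mice in each group the two-sided exact permutation test reaches no p below 0.1, and Rpl29, Rpl28, Rpl6, Rpl35a and Rpl8 each gave 0.1.

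**Figure D2:**
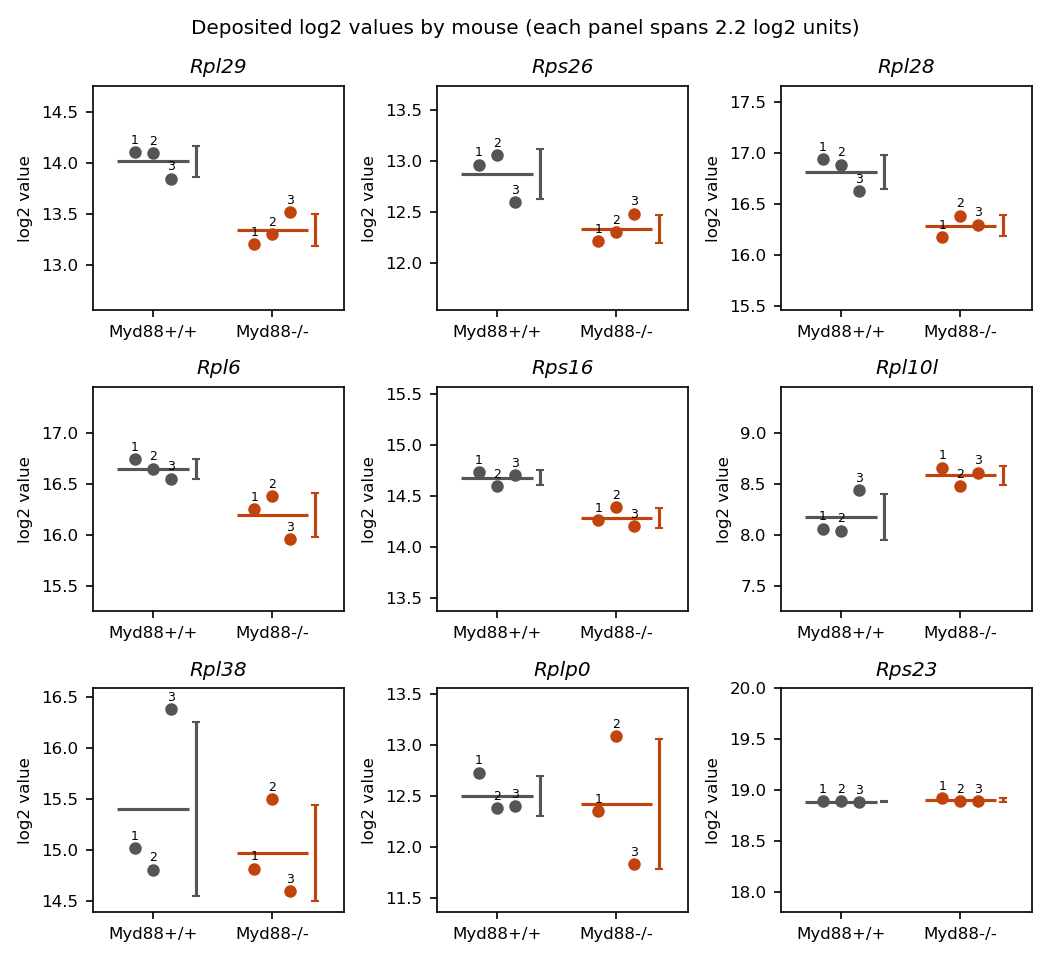
Deposited log2 value (vertical axis, each panel spanning the same height) of 9 ribosomal protein genes in each mouse, numbered as in the labels, with group means (horizontal lines) and SDs (bars, n = 3). Rpl29, Rps26, Rpl28, Rpl6 and Rps16 have groups that do not overlap with the knockout lower, Rpl10l has the knockout higher, Rpl38 and Rplp0 are spread by single mice, and Rps23 lies between 18.88 and 18.92.

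In the small subunit the smallest p-values were those of Rps26, which lines the channel through which mRNA leaves the ribosome, and Rps16, whose tail reaches the decoding site. Rps26 measured 12.97, 13.06 and 12.60 in the wild-type and 12.22, 12.31 and 12.49 in the knockout mice. The groups were separate, with knockout mouse 3 close under wild-type mouse 3, and the difference was -0.54 (SE 0.19; 1.46-fold; limma adjusted p 0.4294). Rps16 measured 14.73, 14.59 and 14.70 against 14.26, 14.39 and 14.20, a narrow spread in both groups, and differed by -0.39 (SE 0.16; 1.31-fold; limma adjusted p 0.4660). Rps9, at the entry of the mRNA channel, had a difference of -0.46, but knockout mouse 2 (11.71) lay within the wild-type range of 11.38 to 11.94. Rps15 differed by -0.44, with knockout mouse 2 at 16.40 inside the wild-type range of 16.18 to 16.60 and knockout mouse 3 lowest at 15.51. Rps21 differed by -0.33, again with knockout mouse 3 lowest, at 12.60. Rps10 was the third small-subunit gene without overlap, 13.36, 13.13 and 13.15 against 12.94, 13.06 and 13.01, and differed by -0.21. No small-subunit gene had a difference above 0.087, that of Rps15a. Those next to it were Rps27l (0.076), Rpsa (0.038), Rps14 (0.030) and Rps4x (0.018), and the groups overlapped in all 5. The small-subunit median was -0.117 with 17 of 23 genes below 0, and the large-subunit median -0.075 with 24 of 37 below 0.

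On the higher side the large subunit gave Rpl10l, a retrogene copy of Rpl10 known for its role in male germ cells. It measured 8.06, 8.04 and 8.44 in the wild-type and 8.66, 8.48 and 8.61 in the knockout mice. It was the 1 gene whose knockout values all lay above the wild-type values, by a narrow gap to wild-type mouse 3, and the difference was 0.40 (SE 0.18; 1.32-fold; limma adjusted p 0.5007). Rpl41, among the shortest proteins known in mammals, measured 17.70, 17.46 and 17.73 against 17.78, 17.96 and 17.67, a difference of 0.17 with overlapping groups. Rpl32, often used as a reference gene, differed by 0.14 with knockout values of 15.37 to 15.48 and wild-type values of 15.23 to 15.42. Rpl15 and Rpl9 differed by 0.078 and 0.069. Apart from Rpl10l, no gene of either subunit had a higher difference than Rpl41.

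The acidic stalk, formed by Rplp0 with Rplp1 and Rplp2, recruits elongation factors to the ribosome. Rplp2 was not among the genes that the rule found on this array. Rplp0, also a common reference gene, measured 12.73, 12.38 and 12.40 in the wild-type and 12.35, 13.09 and 11.83 in the knockout mice. Knockout mice 2 and 3 held the highest and the lowest of the 6 values, so the difference of -0.075 had a 95% interval from -0.74 to 0.59. Without knockout mouse 2 the difference was -0.41, and without knockout mouse 3 it was 0.22. Rplp1 measured between 17.14 and 17.55 against 16.88 to 17.34 and differed by -0.23. Rpsa, a small-subunit protein also described as a laminin receptor, measured 12.74, 12.40 and 13.00 against 12.85, 12.68 and 12.72, with the knockout mice inside the wild-type range.

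Paralogs were compared with their parent genes only by their differences, since the brightness of different probe sets is not a measure of relative RNA amount, and near-identical copies can share probes. Rpl3 differed by -0.16 and Rpl3l, its counterpart in striated muscle, by -0.087. Rpl39 differed by 0.022 and Rpl39l, which is known from testis, by -0.092. Rps4x differed by 0.018 and its paralog Rps4l by -0.089. Rpl3l, Rpl39l and Rps4l had means of 4.62, 4.77 and 5.53, under the background control median of 5.55, so their differences describe signal near background. Rpl32l differed by -0.010 where Rpl32 differed by 0.14. Rps27l, a paralog of Rps27 that p53 is known to induce, had knockout values of 12.83, 12.33 and 12.35 around wild-type values of 12.60, 12.45 and 12.23. Rps27 and Rpl10, the parents of Rps27l and Rpl10l, were not among the genes that the rule found, so these pairs could not be compared. Without the 6 paralogs and retrocopies the median over 54 genes was -0.113, with 37 below 0.

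The members named here for known roles outside the ribosome or in its control had overlapping groups, with differences from -0.31 for Rps19 to -0.024 for Rpl5. Rps6, the classic substrate of the S6 kinases, measured 17.31, 17.25 and 17.46 against 17.17, 17.26 and 17.26, a difference of -0.11. Rpl5 and Rpl11, which with 5S rRNA can bind Mdm2 and so stabilise p53, differed by -0.024 and -0.20. Rpl5 stood at 15.92 to 15.94 in the wild-type mice and reached down to 15.81 in knockout mouse 3. Rps19, the gene most often mutated in Diamond-Blackfan anaemia, differed by -0.31, and knockout mouse 3 was lowest at 10.72 while knockout mouse 1 (11.38) lay in the wild-type range of 11.28 to 11.51. Rpl22, needed for T cell development in mice, measured 14.72, 15.02 and 15.14 against 14.97, 14.50 and 14.86, a difference of -0.18.

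The 60 genes varied little between mice of a group. The median within-group SD was 0.169 log2 units, against 0.249 over all tested probe sets and 0.201 over the brightest 10% of them. The steadiest was Rps23, a protein of the decoding centre, at 18.88 to 18.92 in all 6 mice, with a difference of 0.015 and a 95% interval from -0.33 to 0.36. Rpl21 lay between 17.51 and 17.58, and Rpl17, which lines the exit tunnel, between 16.96 and 17.10, with a difference of -0.080. At the other end Rpl38, known for its effect on the translation of Hox mRNAs, measured 15.02, 14.81 and 16.38 in the wild-type and 14.82, 15.50 and 14.60 in the knockout mice. Its difference of -0.43 rested on wild-type mouse 3, and without that mouse it was 0.058. The next most variable were Rplp0 and Rps9, with within-group SDs of 0.470 and 0.434 beside 0.688 for Rpl38. Probe sets read brighter here than most: 52 of 60 lay among the brightest 10% of tested probe sets, and 0 came within 1 log2 unit of the scale's ceiling of 19.93. The 8 genes with a mean of 17 or more had a median within-group SD of 0.0857 and a median difference of -0.074, and the 18 with a mean of 11 to 14 had 0.205 and -0.128. Over all tested probe sets in the same ranges the SDs were 0.146 and 0.210.

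Each gene's value in a mouse was also set against its mean over the 6 mice. The median of these deviations over the 60 genes was 0.093, -0.004 and 0.041 in wild-type mice 1 to 3 and -0.006, -0.014 and -0.113 in knockout mice 1 to 3. Wild-type mouse 1 held the highest value of a gene in 19 of 60 genes and knockout mouse 3 the lowest in 26 of 60, while the medians of wild-type mouse 2 and knockout mice 1 and 2 lay close together, so that the groups all but touched. Knockout mouse 3 was lower for the small subunit, at -0.190, than for the large, at -0.083. The brightest 10% of all probe sets shared the extremes, wild-type mouse 1 highest and knockout mouse 3 lowest, but not the order between them, with medians of 0.125, -0.006 and -0.004 in the wild-type and -0.040, 0.049 and -0.120 in the knockout mice. The summed signal of the 60 genes, as log2, ran from 21.66 to 21.73 in the wild-type and from 21.52 to 21.68 in the knockout mice.

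**Figure D3:**
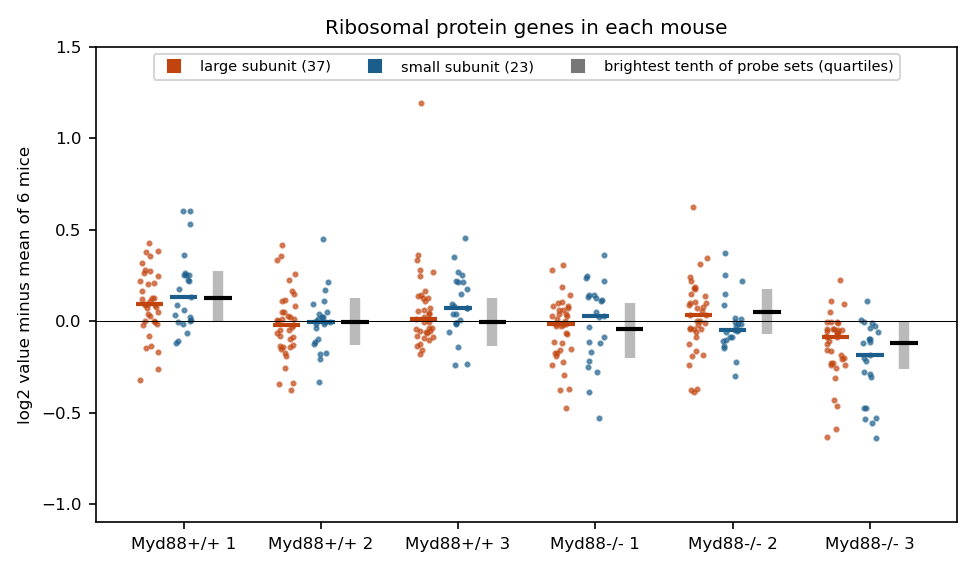
Log2 value minus the gene's mean over the 6 mice (vertical axis) for each ribosomal protein gene in each mouse, points coloured by subunit, with the subunit median (coloured lines) and the median and quartiles of the brightest 10% of all probe sets (black lines, grey bars). The medians of knockout mouse 3 lie lowest (-0.083 for the large and -0.190 for the small subunit) and those of wild-type mouse 1 highest (0.091 and 0.135).

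The lower median was close to that of other bright probe sets. Over the brightest 10% of tested probe sets the median difference was -0.075, 62.3% were below 0, 9.14% had a lower mean at an unadjusted p under 0.05, and in 12.5% all knockout values lay below all wild-type values. For the ribosomal protein genes the corresponding values were -0.088, 68.3%, 8.33% and 13.3%. The median over all tested probe sets was 0.016, and among the dimmer ones it was above 0, up to 0.106. The span between the 10th and 90th percentile of the arrays moved with this, at 7.3, 7.1 and 7.2 log2 units in the wild-type and 6.95, 7.13 and 6.83 in the knockout mice. Its part in the ribosomal protein differences was not tested. The split between lower and higher genes depended on the scaling of the arrays. After quantile normalization 32 of 60 genes (53.3%) were below 0 with a median of -0.020, and after cyclic loess 34 (56.7%) with -0.049. After centring each array on its median 45 (75%) were below 0 with -0.110. Taken relative to the median of its own 10% class of signal, 32 genes were below 0, with a median of -0.039. Rpl29, Rps26, Rpl28, Rpl6 and Rps16 kept a lower knockout mean after quantile normalization, cyclic loess and median centring. Leaving out any 1 mouse could not reverse them, since their groups did not overlap, so those fits are no check of their direction.

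**Figure D4:**
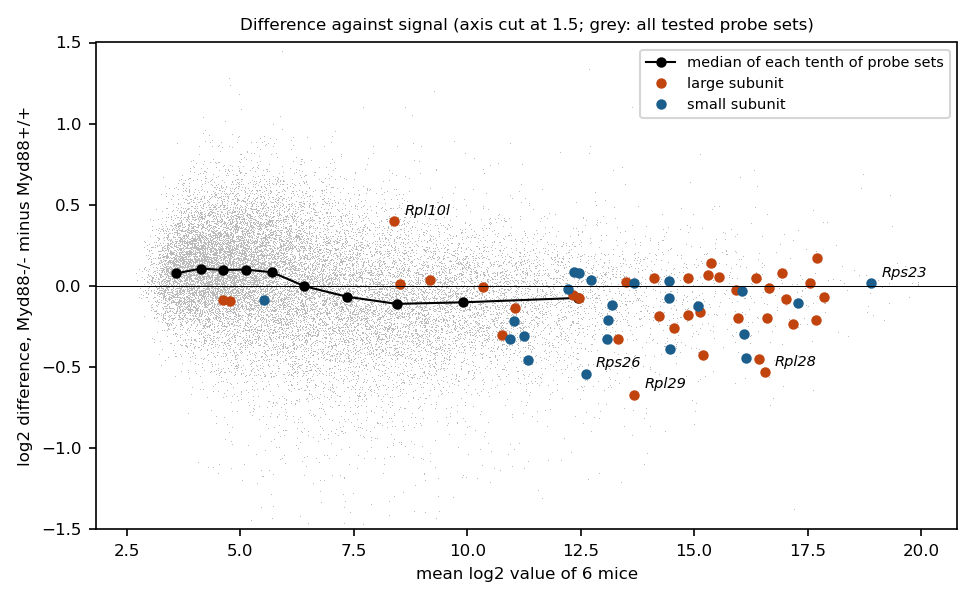
Log2 difference (vertical axis, limited to 1.5 either way) against the mean log2 value of the 6 mice (horizontal axis) for all tested probe sets (grey), the ribosomal protein genes (coloured by subunit) and the median of each 10% of probe sets by mean signal (black line). The black line runs from above 0 at low signal to -0.075 in the brightest class, and most ribosomal protein genes lie around it at its bright end.

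The count of genes at an unadjusted p under 0.05 moved with single mice, as did the share over all probe sets, and 0 ribosomal protein genes reached an adjusted p under 0.05 in any of these fits. It was 5 with all mice, 2 without wild-type mouse 1, without wild-type mouse 2 or without knockout mouse 1, 3 without knockout mouse 3 and 8 without knockout mouse 2. The share over all tested probe sets was 10.05% with all mice, where the ribosomal protein genes had 8.33%, and 13.9% without knockout mouse 2, where they had 13.3%. It was 7.91%, 8.21% and 7.58% in the 3 fits that left 2 genes (3.33%), and 6.99% in the fit that left 3 (5%). The genes with lower means numbered between 37 and 48 of 60 when any 1 mouse was left out.

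Some ribosomal protein genes lie on chromosome 9 with Myd88, where sequence linked to the targeted gene cannot be told apart from the genotype. The nearest by gene order were Rpsa, with 15 protein-coding genes between it and Myd88, and Rpl14, with 20. Rpsa differed by 0.038 and Rpl14 by 0.045, the latter with values of 14.85, 14.92 and 14.78 against 14.91, 14.95 and 14.82. Rpl29, with the lowest difference of all, is on the same chromosome with 194 genes between.

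Ribosomal proteins whose symbols fall outside the rule were looked at beside it. Of 7 measured genes of this kind 6 had a lower mean in the knockout mice, with a median of -0.153. Fau, whose product is cut into a ubiquitin-like part and the small-subunit protein eS30, measured 13.10, 12.89 and 12.79 against 12.53, 12.75 and 12.26. Its groups did not overlap, and its difference of -0.41 did not pass (limma, adjusted p 0.5082). Rpl36al differed by -0.34 and Rpl37rt by -0.23, both with overlap. The 76 measured mitochondrial ribosomal protein genes, whose products build a separate ribosome inside mitochondria, had a median of -0.091 with 52 below 0. At an unadjusted p under 0.05 (limma) 3 had lower means (3.95% against 5.55% of all probe sets) and 1 a higher mean (1.32% against 4.50%). The 3 with the smallest p were Mrps5 (0.50), Mrps18b (-0.56) and Mrpl42 (-0.49), and none passed the adjustment (limma, smallest adjusted p 0.4569).

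Genes that make or use the same translation machinery were described by lists. Of 19 other translation genes whose mRNAs carry TOP tracts, 11 had a difference below 0 and the median was 0.000. At an unadjusted p under 0.05 (limma) there were 0, against 10.05% of all tested probe sets. Means in this list reached 19.93, the ceiling of the scale, where a gene can show no difference but still enters the count and the median. The 3 with the smallest p were Btf3 (-0.31), a subunit of the complex that meets new protein chains, and Eif3k and Eif3l (-0.33 and -0.28), subunits of an initiation factor. Of 34 ribosome biogenesis genes 19 were below 0, with a median of -0.036. At an unadjusted p under 0.05 (limma) 3 were lower, 8.82% against 5.55% of all tested probe sets. Dkc1, the pseudouridine synthase of rRNA, measured between 7.73 and 8.02 against 7.10 to 7.17, a difference of -0.79 without overlap (limma adjusted p 0.3208). Polr1a, the largest subunit of RNA polymerase I, differed by -0.53 and Wdr12, needed to mature the large subunit's rRNA, by -0.49, both without overlap. Every knockout value lay below every wild-type value in 4 of the 34 (11.8% against 7.25% of all probe sets), and above in 1 (2.94% against 7.84%). Of 15 genes of the mTORC1 and Larp1 control of TOP mRNAs, 9 were below 0, with a median of -0.094. Rptor, the subunit of mTORC1 that binds its substrates, measured 7.22, 6.83 and 6.73 against 6.14, 6.31 and 6.01, a difference of -0.77 without overlap (limma adjusted p 0.3453). Tsc2, an inhibitor of mTORC1, and Eif4ebp2, one of its targets, differed by -0.34 and -0.31, also without overlap. Every knockout value lay below every wild-type value in 4 of the 15 (26.7% against 7.25% of all probe sets), and above in 0 (0% against 7.84%). None of these genes passed the adjusted test.

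**Figure D5:**
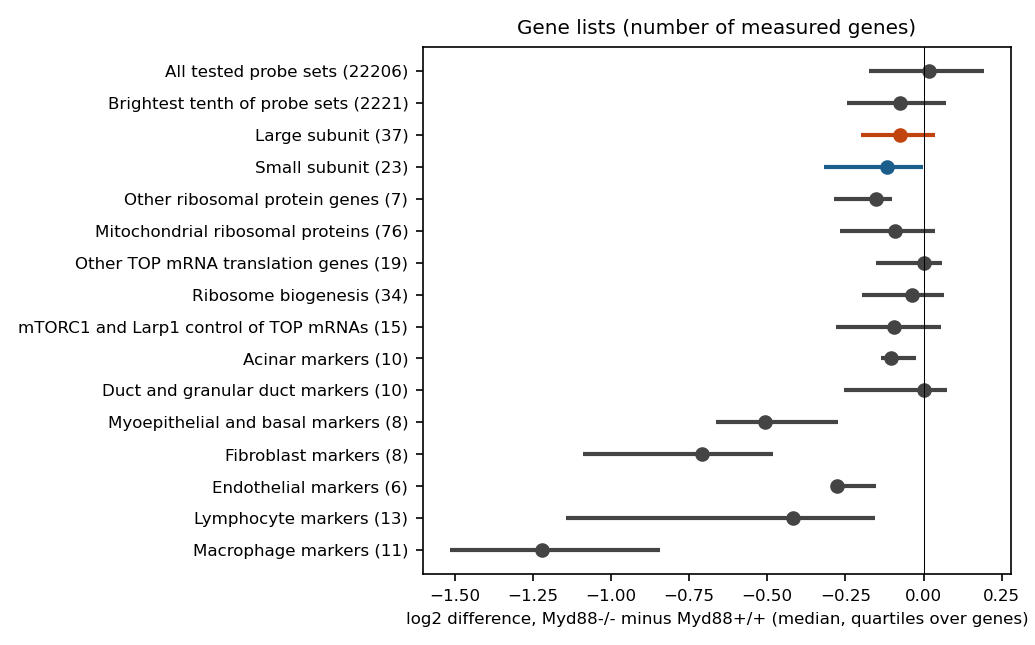
Median log2 difference (points) and quartiles over genes (lines) for all tested probe sets, the brightest 10%, the ribosomal protein genes by subunit and the other gene lists, with the number of measured genes in brackets. The ribosomal, translation, acinar and duct lists have medians from -0.153 to 0.001, while macrophage and fibroblast markers have -1.22 and -0.71.

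The median differences of markers of other cell types were furthest from 0 for macrophage, fibroblast, myoepithelial and lymphocyte markers and close to 0 for acinar and duct markers. All 11 macrophage markers had lower means in the knockout mice, with a median of -1.22. Of them 9 (81.8% against 5.55% of all probe sets) had an unadjusted p under 0.05 (limma). Their summed signal ran from 12.02 to 13.58 in the wild-type and from 11.02 to 11.44 in the knockout mice. Fcer1g differed by -2.08, C1qb by -1.63 and Csf1r by -1.23. Of 13 lymphocyte markers 12 were lower, with a median of -0.419 and summed signals of 10.70 to 12.44 against 10.38 to 10.53. Wild-type mouse 3 was highest and knockout mouse 3 lowest in both sums, and in the ribosomal protein median wild-type mouse 1 was highest and knockout mouse 3 lowest. Of the lymphocyte markers 6 had means under the background median, among them the B cell markers Cd79a and Cd79b, at 3.78 to 4.90 and 3.99 to 4.34 over the 6 mice. In 4 of the 13 every knockout value lay below every wild-type value (30.8% against 7.25% of all probe sets). These were the T cell gene Cd3g and Ptprc, Cd52 and Coro1a, which other leukocytes, macrophages among them, also express. Cd3e (5.13 to 8.26 against 4.74 to 5.27), Cd2, Cd5, Ms4a1, Cd79a and Cd79b overlapped between the groups. All 8 fibroblast markers were lower, with a median of -0.71, sums of 17.63 to 18.02 against 17.24 to 17.68, and Islr (-1.51), Fbln1 (-0.90) and Col1a2 (-1.12) with the smallest p. Of 8 myoepithelial and basal markers 7 were lower (median -0.506, sums of 13.69 to 14.40 against 12.90 to 13.76), with Trp63 at -1.18. The acinar and duct markers, which define the gland's secretory tissue, had median differences of -0.105 and 0.001 over 10 genes each. Of these, 9 acinar and 5 duct markers counted as below 0. The counts and medians take in genes at the ceiling, which can show no difference. Pip, Mucl2 and Klk1 sat on the ceiling of the scale in all 6 mice and make up much of the summed signal of these lists, which therefore cannot show a difference (21.69 to 21.77 against 21.69 to 21.74, and 20.08 to 20.09 against 20.08 to 20.14). Of 10 duct markers 3 had every knockout value below every wild-type value (30% against 7.25% of all probe sets). Among these 3, Ascl3 (-0.96) and Foxi1 (-0.60), transcription factors of ductal ionocytes, had a lower mean at an unadjusted p under 0.05 (limma, 20% against 5.55%). Among the acinar markers Bpifa2 differed by -2.66, with wild-type mouse 3 (6.27) at the level of the knockout mice, and Dcpp3 read 14.91 in wild-type mouse 3 and 4.65 to 6.59 in the other 5 mice. The sublingual gland lies against the submandibular gland, and of 3 genes listed for it only Smgc was measured, at 18.78 to 19.83 against 18.94 to 19.18. Smgc is also made in the submandibular gland, so these values cannot gauge how much sublingual tissue was taken along. Dcpp1, of the same family as Dcpp3, was listed for both glands but was not measured. Of 6 endothelial markers 5 were lower (median -0.278), and of 9 blood, fat, muscle and nerve markers 4 were lower (median 0.166). Of 11 immediate early and heat shock genes 9 were lower (median -0.134, sums of 11.02 to 11.84 against 10.94 to 11.17). None of these marker genes passed the adjusted test (limma), and their part in the ribosomal protein values was not tested.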

How the data were processed

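The authors deposited log2 values of robust multi-array average (RMA) signal (software: Transcriptome Analysis Console), as the labels and submitters' processing notes state. For the software version, RMA variant and annotation build, nothing was given in the sources used here. The method subtracts background, scales arrays to each other and summarises probes, which compresses differences near background. Of 28846 rows, 6640 control rows were left out. The platform annotation gave 1 symbol to 19572 of the 22206 rows tested, several to 0 and none to 2634. Differences were fitted with limma 3.58.1 (lmFit, eBayes, no covariates; R 4.3.3), p-values were adjusted by the Benjamini-Hochberg method across every tested row, and a gene counted as called under 0.05. The fit was tested on simulated data. Summed signals add linear values. The number of arrays (6) limits precision, and scanner files were not used here.

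Members and gene lists were chosen with earlier results of these data known. Named were, per subunit, the 5 genes with the smallest p in each direction, the stalk and Rpsa, paralog pairs, genes with known further roles, the 3 most and 3 least variable, and up to 3 genes of each list. Rpl8, Rps10, Rpl14 and the markers given only as levels were added after their values were seen, as were Rps3a1 and Rpl37rt to the list outside the rule. Promoter sequences are RefSeq's (GRCm38.p6). Alternatives were other scalings, filters on dim probe sets, variance models, a replicate block and leaving out each mouse. The difference relative to the own 10% class of signal, and the members without paralogs, were alternatives chosen after seeing the data.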

Additional observations from a re-analysis of the deposited data

How the results depend on the processing

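The count of ribosomal protein genes called stayed at 0 in every alternative run, with smallest adjusted p-values from 0.2057 to 0.6755 (limma). The median difference was -0.020 after quantile normalization, and between -0.129 and -0.061 without 1 mouse. Leaving out 1 mouse gave between 2 and 8 genes at an unadjusted p under 0.05 (3.33% to 13.3%; 6.99% to 13.9% of all probe sets), and between 11 and 21 genes without overlap in place of 9 (18.3% to 35%; 23.3% to 32% of all probe sets), where fewer mice make separation easier. Other counts of these kinds stayed within 1.5 times. With the replicate number as a block (replicate block) 0 genes were called, and the smallest adjusted p was 0.5459 (limma). In that fit 4 genes had an unadjusted p under 0.05, 6.67% against 8.18% of all probe sets. Deviations of same-numbered mice correlated at -0.113, -0.155 and -0.019 over all probe sets, so the numbers were not taken to pair mice.

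Of 45 named members 30 kept their direction in every alternative and 15, all near 0 or resting on 1 mouse, did not. A gene whose groups do not overlap cannot change direction when 1 mouse is left out. After quantile normalization Rplp0 read 0.064, Rpl32l 0.121, Rpl5 0.010 and Rpl17 0.037, and after cyclic loess Rplp0 read 0.016, Rpl32l 0.099 and Rpl5 0.023. Array weights gave Rpl32l 0.105. Median centring gave Rps4x -0.004, Rps23 -0.007, Rpl21 -0.001 and Rpl27 -0.012. Without 1 mouse Rpl9 ranged from -0.006 to 0.178, Rps15a from -0.009 to 0.161, Rps27l from -0.085 to 0.163, Rpsa from -0.120 to 0.184, Rps14 from -0.016 to 0.081, Rps4x from -0.039 to 0.131, Rplp0 from -0.409 to 0.223, Rpl39 from -0.142 to 0.166, Rpl32l from -0.165 to 0.110, Rpl5 from -0.050 to 0.027, Rpl38 from -0.725 to 0.058 and Rpl27 from -0.052 to 0.044. Outside the members, Dcpp3 ranged from -4.240 to 0.894 without 1 mouse, and Fcer1g was called without wild-type mouse 1 (-2.575, limma adjusted p 0.02953) and Bpifa2 without wild-type mouse 3 (-3.806, limma adjusted p 0.02422). The causes were not tested. Leaving out members near the ceiling and using every probe set of a gene changed nothing, since no member was concerned.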
